A study of Homo sapiens with 6 samples.

Results

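STK11, KEAP1, CDKN2A, PIK3CA, SMARCA4, MYC, RB1 and EGFR are recurrent driver genes of lung cancer, and they are described here in H460, an established line of human non-small-cell lung carcinoma cells. They were chosen as the rows of the expression table whose Ensembl gene identifiers carry these 8 symbols in the GENCODE v44 annotation of GRCh37, and all 8 were found among 57773 listed genes. The rule itself used no level, but the members were chosen with earlier results of these data known. All 6 libraries come from the same line with no engineered change. The 3 control libraries (siNT) received an ON-TARGETplus non-targeting siRNA and the 3 knockdown libraries (siHKlincR1) received siHKlincR1_2, an ON-TARGETplus siRNA against HKlincR1. Each siRNA was used at 50 nM with Lipofectamine RNAiMAX for 48 hours. The authors describe HKlincR1 as a long intergenic non-coding RNA whose locus may also encode a protein, and GENCODE v44 types the gene as protein-coding. PolyA RNA was sequenced, and the labels describe the 3 libraries of each group as biological replicates. Any difference rests on 1 siRNA in 1 cell line.

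Tumours of the lung lose or activate these genes in a few connected pathways. EGFR is a receptor tyrosine kinase at the cell surface, PIK3CA encodes a catalytic subunit of phosphatidylinositol 3-kinase that such receptors recruit, and MYC is a transcription factor that drives growth and ribosome production. STK11 encodes LKB1, the kinase that activates AMPK and related kinases, KEAP1 holds the antioxidant factor NRF2 at a low level by directing it to degradation, CDKN2A encodes the inhibitors p16 and p14ARF, RB1 restrains the E2F factors, and SMARCA4 is an ATPase of the SWI/SNF chromatin remodelling complex. H460 is known for mutations of STK11, KEAP1 and PIK3CA and for loss of CDKN2A. Expression values do not read these mutations, and none was called here.

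The siRNA is shown because the members were searched for its seed, the 7 bases (2 to 8) of the guide strand through which an siRNA can also pair with 3′ UTRs of other transcripts. Each sequence is written 5′ to 3′. Capitals mark the seed, the bases of the sense strand complementary to it, and the matching site in a member.
siHKlincR1_2 guide strand: aAGCACACgaguauacuuc
siHKlincR1_2 sense strand: gaaguauacucGUGUGCUu
RB1 3′ UTR site: tgatatactGTGTGCTtgttttata
The site GTGTGCT was searched in the canonical 3′ UTR of each gene, on the transcript strand. Of the 8 members RB1 alone held it, with 1 site at bases 591 to 597 of a 3′ UTR of 1819 nt (chr13:49054798-49054804, plus strand, GRCh37). Among tested genes with a 3′ UTR of at least 30 nt, 14.05% held the site (1512 of 10759). A match is a description of the letters and says nothing of pairing in the cell. Beyond the members, sites are given below for only some of the genes named.

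HKlincR1 itself was at 3.62, 3.47 and 3.83 RPKM with siNT and at 0.563, 0.628 and 0.390 RPKM with siHKlincR1, where RPKM is the read count scaled to gene length and library total. The reduction was 85.5%, and the groups did not overlap. The library totals ran from 24980280 to 30521000 reads. siHKlincR1 replicate 3 lay nearest to the controls, with a mean absolute log2 difference from the siNT mean of 0.193 over tested genes against 0.264 and 0.300 for replicates 1 and 2, although its HKlincR1 level was the lowest. The epithelial keratins KRT18, KRT19 and KRT8 averaged 82.4, 41.6 and 31.5 RPKM with siNT, while EPCAM averaged 0.0556 RPKM and CDH1 did not exceed 0.00543 RPKM in any library. All 7 markers of alveolar and airway cells had at most 3 reads in every library, NKX2-1 and the surfactant genes among them. The summed levels of the 8 epithelial markers were 152.1 to 172.6 RPKM with siNT and 154.7 to 170.2 RPKM with siHKlincR1. Only 4 of these 8 averaged 0.5 RPKM or more, and the keratins named above gave most of the sum with siNT. The 5 leukocyte markers summed to at most 0.339 RPKM in any library and the 5 neuroendocrine markers to at most 0.727 RPKM. The fibroblast and endothelial markers summed to 1.38 to 1.59 RPKM with siNT and 0.635 to 1.02 RPKM with siHKlincR1, mostly COL1A1, whose difference did not pass the test (adjusted p = 0.196 by limma).

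In the control cells 7 of the 8 genes were expressed and CDKN2A was not detectable. MYC was the highest, at 110.7, 114.3 and 93.5 RPKM, above 97.6% of tested genes. SMARCA4 followed at 22.8, 23.1 and 23.2 RPKM and KEAP1 at 17.7, 17.7 and 20.6 RPKM. RB1 was at 11.5, 11.6 and 11.04 RPKM. The first place of MYC was wide, since its siNT mean was 4.61 times that of SMARCA4. EGFR, at 6.43, 6.82 and 5.30 RPKM, and STK11, at 5.93, 5.75 and 6.37 RPKM, were the only neighbours in the order whose siNT values overlapped, and both lay near the median of 5.05 RPKM of all tested genes. PIK3CA was the lowest expressed member, at 2.27, 2.33 and 2.28 RPKM, above 30.8% of tested genes. The order of levels depends on the gene lengths behind the RPKM values, which worked back to 2995 nt for MYC, 10954 nt for SMARCA4 and 9411 nt for PIK3CA.

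**Figure D1:**
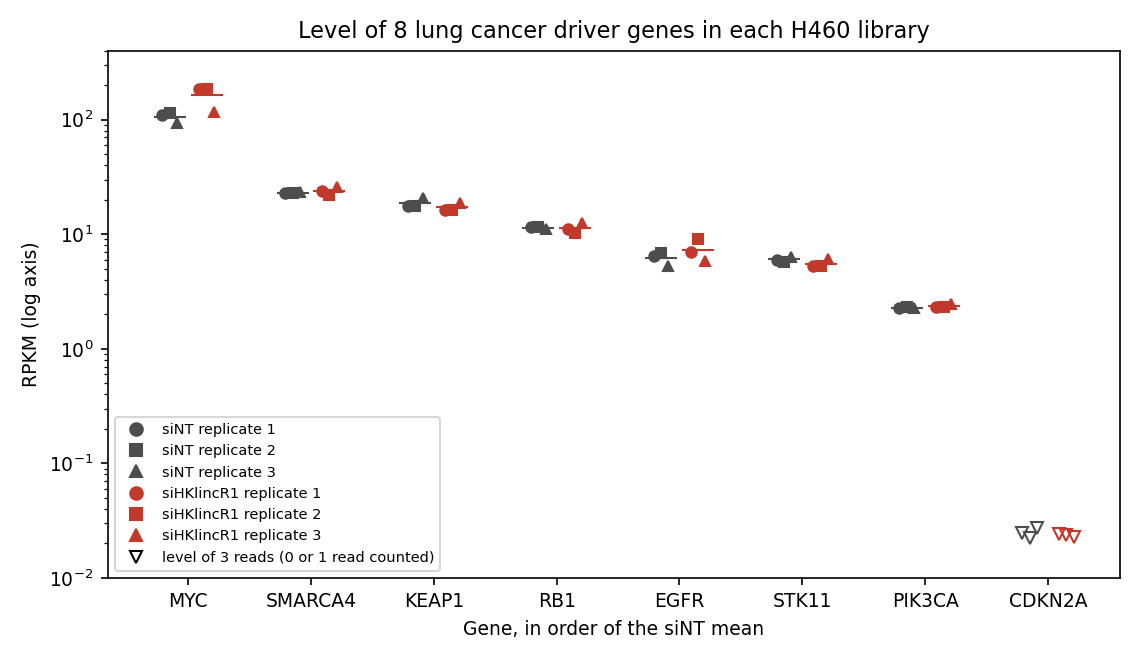
RPKM of the 8 driver genes in each library on a log axis, with siNT in grey and siHKlincR1 in red, replicates by marker shape and group means as lines. The genes run from MYC at 93.5 to 187.2 RPKM down to PIK3CA at 2.27 to 2.46 RPKM, and for CDKN2A open triangles mark the level that 3 reads would give.

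The knockdown was compared with the controls by limma on log2(RPKM + 0.1) over the 15451 genes that averaged 0.5 RPKM or more. Calls needed a fold change over 1.5 and, after Benjamini-Hochberg adjustment over all these genes, a p under 0.05. Log2 fold changes are siHKlincR1 minus siNT on this scale, which understates changes of low genes. Of the 8 members 7 passed the filter on low values and 0 were called, against 0.362% of all tested genes. At an unadjusted p under 0.05 there was 1, against 16.2% of all tested genes, and voom called 0 from the reads recovered from RPKM. With the replicate number as a block, 1 of the 7 was called (14.3%), which was MYC, against 1.32% of all tested genes. Differences of 4 members were positive and of 3 negative. Their median log2 fold change was 0.04, beside 0.00 over all tested genes, whose 10th and 90th percentiles were -0.32 and 0.30. In RNA of whole cultures, fewer cells of a kind and less RNA per cell cannot be told apart.

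**Figure D2:**
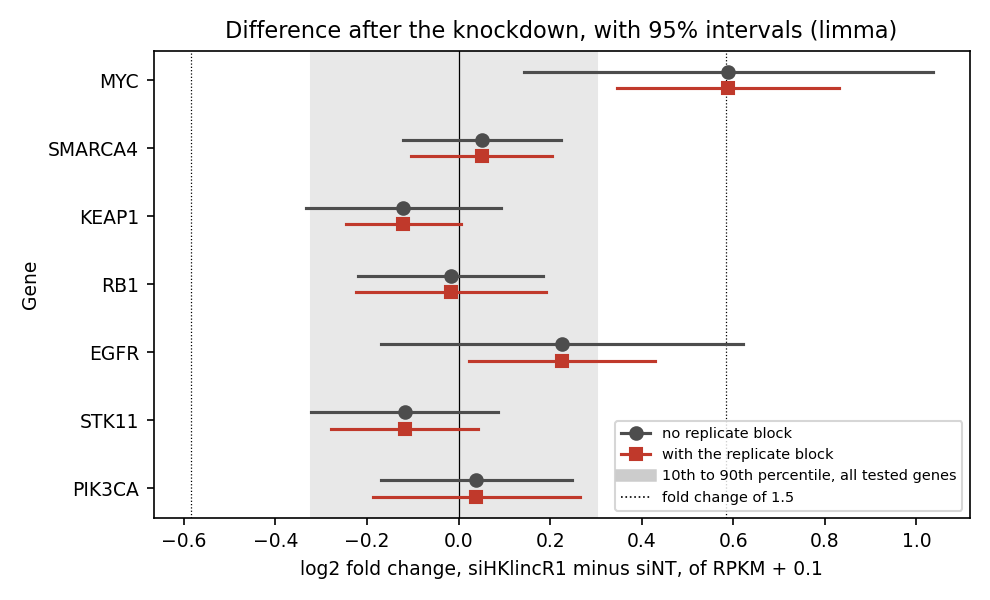
Log2 fold change of the 7 tested members with 95% intervals from limma without the replicate block (grey circles) and with it (red squares). The grey band is the 10th to 90th percentile of all tested genes, and MYC alone lies outside it, at 0.59.

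MYC had the largest difference of the 8. It was at 184.9, 187.2 and 116.3 RPKM with siHKlincR1, against 110.7, 114.3 and 93.5 RPKM with siNT. Each knockdown library was above each control library, but the third knockdown library, at 116.3 RPKM, was close to the highest control, at 114.3 RPKM. The mean went from 106.2 ± 11.1 to 162.8 ± 40.3 RPKM (SD, n = 3), with 6996 to 16218 reads per library. The log2 fold change of 0.59 (SE 0.19, 95% interval 0.14 to 1.04) did not pass the test (adjusted p = 0.237 by limma). Taken within same-numbered pairs the differences were 0.74, 0.71 and 0.31. In a fit with the replicate number as block MYC was called higher. The limma adjusted p was 0.0493 (95% interval 0.35 to 0.83) and the fold change 1.504. Both values lie next to their thresholds. Without siHKlincR1 replicate 3 the log2 fold change was 0.81 (adjusted p = 0.0224 by limma), and the blocked call was lost when pair 1 or pair 2 was left out (adjusted p = 0.0974 and 0.131 by limma). Groups without overlap were found for 22.0% of all tested genes, and in the higher direction for 10.1% (for MYC p = 0.1 by an exact two-sided permutation test, which is the lowest possible with 3 libraries against 3).

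**Figure D3:**
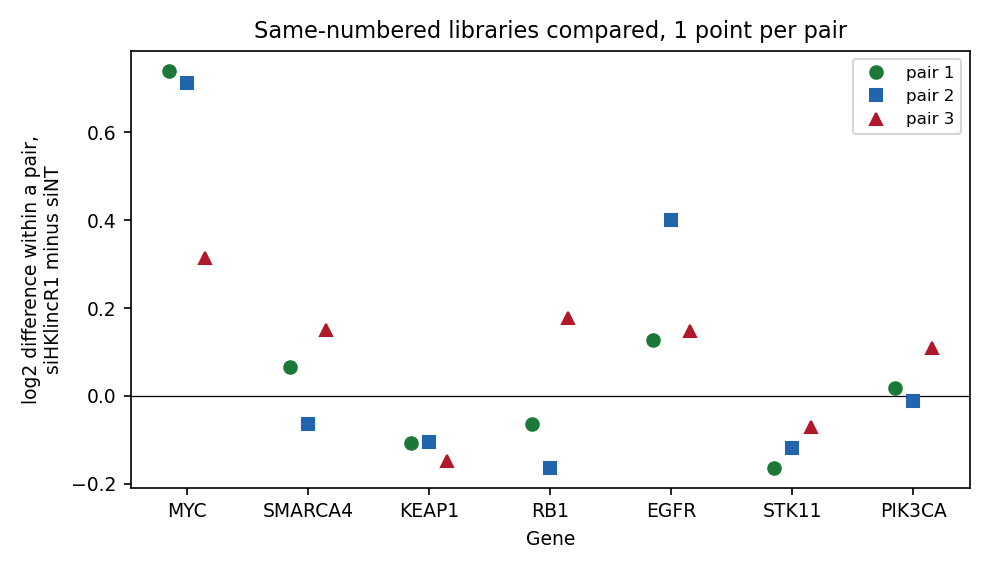
Log2 difference of siHKlincR1 minus siNT within each same-numbered pair of libraries for the 7 tested members, 1 point per pair. All 3 pairs are above 0 for MYC and EGFR and below 0 for KEAP1 and STK11, while the pairs of SMARCA4, RB1 and PIK3CA lie on both sides of 0.

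MYC is encoded on the plus strand (chromosome 8, 128747680 to 128755197, GRCh37, as for all positions here). Its exons share 194 nt with the antisense long non-coding RNA CASC11, which did not exceed 0.120 RPKM. Across the 6 libraries, the genes most like MYC in log2 level were CHML (r = 0.997, 48.2 RPKM with siNT and 56.3 with siHKlincR1), ZNF189 (5.32 and 6.58 RPKM) and a processed pseudogene (ENSG00000223559, 15.2 and 21.3 RPKM). These correlations rest on 6 libraries that share depth and condition, and are given as a description.

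Of 13 tested partners of MYC (the MYC family and the MAX network), 0 were called with or without the block, 10 had positive and 3 negative values, and the median log2 fold change was 0.17. MXD1, a MAX partner that opposes MYC, was at 3.56, 3.65 and 2.37 RPKM with siNT and 4.44, 7.31 and 2.67 RPKM with siHKlincR1. MYCL, the paralog first found in lung cancer, was at 0.470, 0.556 and 0.403 RPKM and then at 0.763, 1.05 and 0.416 RPKM. Neither passed the test (adjusted p = 0.498 and 0.480 by limma), and in both the third knockdown library was the lowest of its group. All 36 of the listed MYC target genes, mostly for nucleolar and ribosome assembly proteins, were tested, and 0 were called. Values were positive for 22 and negative for 14, and the median was 0.03. The 2 with the largest differences were both lower. LDHA, lactate dehydrogenase A, was at 274.8, 275.9 and 290.2 RPKM with siNT and 214.5, 204.4 and 246.1 RPKM with siHKlincR1. Its groups did not overlap, and its log2 fold change was -0.34 (adjusted p = 0.168 by limma, and 0.0493 with the block, where its fold change was under 1.5). An adjusted p under 0.05 alone was reached with the block by 2.93% of all tested genes. SLC19A1, the reduced folate carrier, differed by -0.35 (adjusted p = 0.298 by limma).

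EGFR was at 7.04, 9.04 and 5.88 RPKM with siHKlincR1, against 6.43, 6.82 and 5.30 RPKM with siNT. The groups overlapped, since the third knockdown library was below the first and second controls. The mean was 6.18 ± 0.789 RPKM with siNT and 7.32 ± 1.596 RPKM with siHKlincR1 (SD, n = 3), a log2 fold change of 0.23 (SE 0.17, 95% interval -0.17 to 0.62, adjusted p = 0.515 by limma). EGFR is encoded on the plus strand (chromosome 7, 55086710 to 55279321), and its antisense transcript EGFR-AS1, which shares 186 nt of exon, was listed at 0 in all libraries.

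Among 16 tested receptors, ligands and adaptors of the EGFR family, 0 were called without the block, and 10 values were positive and 6 negative (median 0.11). The 2 largest differences were in ligands of the receptor. AREG (amphiregulin) was at 30.02, 26.4 and 21.0 RPKM with siNT and 43.0, 51.5 and 31.5 RPKM with siHKlincR1. The groups did not overlap, and the log2 fold change was 0.69 (SE 0.20, adjusted p = 0.212 by limma). With the replicate block AREG was called higher, at a limma adjusted p of 0.0443, which rests on pairing the libraries by replicate number. When pair 2 was left out, 0 list genes were called. EPGN (epigen), an abundant transcript in these cells, was at 214.7, 203.8 and 130.9 RPKM with siNT and 307.1, 308.3 and 172.8 RPKM with siHKlincR1. Its groups overlapped and its log2 fold change of 0.50 was below the fold threshold, at limma adjusted p values of 0.388 and, with the block, 0.0291. In both ligands the third library of each group was the lowest of that group.

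Of 17 tested output genes of the MAPK pathway, which carries signals from EGFR and RAS, 0 were called, with 8 positive and 9 negative values (median -0.01). DUSP6, a phosphatase that inactivates ERK, was at 11.2, 11.4 and 9.52 RPKM with siNT and 17.8, 16.5 and 12.3 RPKM with siHKlincR1, which did not overlap (log2 fold change 0.51, adjusted p = 0.209 by limma, with the block 0.0444 and still under the fold threshold). FOSL1, an AP-1 subunit, was at 39.2, 39.9 and 45.5 RPKM with siNT and 69.2, 76.4 and 44.8 RPKM with siHKlincR1. The third knockdown library lay within the control range, and the log2 fold change of 0.58 did not pass the test (adjusted p = 0.245 by limma).

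PIK3CA stayed close to its control level in each library, at 2.30, 2.31 and 2.46 RPKM with siHKlincR1 against 2.27, 2.33 and 2.28 RPKM with siNT, from 535 to 694 reads. The log2 fold change was 0.04 (SE 0.09, 95% interval -0.17 to 0.25, adjusted p = 0.843 by limma). PIK3CA is encoded on the plus strand (chromosome 3, 178865902 to 178957881). Its GENCODE v44 exons share 3403 nt with KCNMB3 on the opposite strand, which was at 0.114 to 0.285 RPKM. Those exons cover 17189 nt, against 9411 nt worked back from RPKM, so the overlap in the models counted may differ. Whether the counting used strand is not given in the sources used here, so the split of reads between such partners is uncertain.

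Among 25 tested genes of PI3K, AKT and mTOR signalling, 0 were called without the block, with 11 positive and 14 negative values (median -0.03). EIF4EBP1, a repressor of cap-dependent translation that mTOR inactivates, was at 59.4, 61.3 and 51.9 RPKM with siNT and 101.6, 111.2 and 69.2 RPKM with siHKlincR1. The groups did not overlap, and the log2 fold change was 0.68 (SE 0.17, adjusted p = 0.178 by limma). With the block EIF4EBP1 was called higher (adjusted p = 0.0437 by limma). That call rests on pairing the libraries by replicate number, and 0 list genes were called when pair 2 was left out. PIK3CD, a catalytic subunit best known from leukocytes, was at 0.557, 0.795 and 0.759 RPKM and then at 0.437, 0.446 and 0.547 RPKM, a log2 fold change of -0.47 (adjusted p = 0.344 by limma).

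STK11 was at 5.29, 5.29 and 6.06 RPKM with siHKlincR1, against 5.93, 5.75 and 6.37 RPKM with siNT. Each pair had the lower value in the knockdown, but the groups overlapped. The mean was 6.02 ± 0.317 RPKM with siNT and 5.55 ± 0.444 RPKM with siHKlincR1 (SD, n = 3), a log2 fold change of -0.12 (SE 0.09, 95% interval -0.32 to 0.09, adjusted p = 0.513 by limma). The gene is encoded on the plus strand (chromosome 19, 1177557 to 1228430), and shares 145 nt of exon with CBARP on the opposite strand (0.743 to 1.21 RPKM). Of 20 tested genes of the LKB1 complex and its downstream kinases, 0 were called, with 10 positive and 10 negative values (median -0.01). SIK2, a kinase activated by LKB1, was at 2.95, 3.01 and 3.37 RPKM with siNT and 2.21, 1.81 and 2.72 RPKM with siHKlincR1, which did not overlap. Its log2 fold change was -0.47 (adjusted p = 0.240 by limma) and its 3′ UTR holds 3 seed sites, whose part in the difference was not tested. BRSK2, another LKB1 substrate, holds 0 seed sites and differed by -0.44 (adjusted p = 0.350 by limma).

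CREB target genes are known to be raised in lung cancer cells that lack LKB1, through CRTC coactivators that the SIK kinases otherwise hold back. Of 17 tested CRTC and CREB genes, 0 were called without the block, with 5 positive and 12 negative values (median -0.17), and with the block only AREG, described above, was called. The 2 with the largest differences were nuclear receptors. NR4A2 was at 11.4, 10.9 and 10.96 RPKM with siNT and 4.33, 4.83 and 11.6 RPKM with siHKlincR1, so that the third knockdown library was above all controls. NR4A3 was at 3.24, 2.99 and 2.83 RPKM with siNT and 1.41, 1.40 and 2.37 RPKM with siHKlincR1, and its groups did not overlap. The log2 fold changes of -0.82 and -0.81 did not pass the test (adjusted p = 0.302 and 0.171 by limma). NR4A3 holds 1 seed site and NR4A2 holds 0.

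KEAP1 was at 16.4, 16.4 and 18.6 RPKM with siHKlincR1, against 17.7, 17.7 and 20.6 RPKM with siNT. The third library was the highest of each group, and the groups overlapped. The pairs differed by -0.11, -0.10 and -0.15, the narrowest spread of pairs among the tested members. The mean was 18.7 ± 1.71 RPKM with siNT and 17.2 ± 1.27 RPKM with siHKlincR1 (SD, n = 3), a log2 fold change of -0.12 (SE 0.09, 95% interval -0.33 to 0.09, adjusted p = 0.522 by limma). KEAP1 is encoded on the minus strand (chromosome 19, 10596801 to 10614234), and shares no exon with another annotated gene. Of 12 tested genes of its ligase and of NRF2, 0 were called with or without the block, with 7 positive and 5 negative values (median 0.05). NFE2L1, a relative of NRF2 that controls proteasome genes, was at 62.4, 66.4 and 47.2 RPKM with siNT and 87.0, 97.8 and 52.8 RPKM with siHKlincR1 (log2 fold change 0.40, adjusted p = 0.426 by limma). BACH1, a repressor that competes with NRF2, differed by 0.27 (adjusted p = 0.473 by limma). In both genes the groups overlapped.

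CDKN2A had 0 reads in 5 libraries and 1 read in siHKlincR1 replicate 3 (0.00759 RPKM). A level of 3 reads, the limit that a count of 0 allows for counting error, would be 0.0223 to 0.0273 RPKM in these libraries. CDKN2A was therefore below the filter and not tested, and no fold is given. It is encoded on the minus strand (chromosome 9, 21967751 to 21995300).

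The other genes around CDKN2A were read in the same libraries. Within 1 Mb of either end, 22 further protein-coding genes are listed, of which 15 were at 0 in all libraries, 2 had 1 to 3 reads in some library and 5 had more. MTAP, the methionine salvage enzyme whose gene is the nearest coding neighbour on the side of lower coordinates, was expressed, at 15.9, 15.3 and 14.2 RPKM with siNT and 16.4, 15.9 and 15.1 RPKM with siHKlincR1. KLHL9, an adaptor of a ubiquitin ligase, averaged 5.71 ± 0.635 and 5.42 ± 0.0802 RPKM, and FOCAD averaged 4.64 and 4.57 RPKM. DMRTA1 was low, at 0.212 and 0.303 RPKM, and so was IFNE, an epithelial interferon, at 0.275 and 0.147 RPKM. KLHL9 holds 2 seed sites and DMRTA1 holds 1. CDKN2B, which encodes the related inhibitor p15, and the antisense transcript CDKN2B-AS1, which shares 593 nt of exon with CDKN2A, were listed at 0 in all libraries. Apart from MIR31HG, the other non-coding genes and pseudogenes of the window, several of which had more than 3 reads, are not described here, so these zeros do not stand for every listed gene nearby. Of the 16 interferon genes in the window, IFNE among them, 13 were also at 0.

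**Figure D4:**
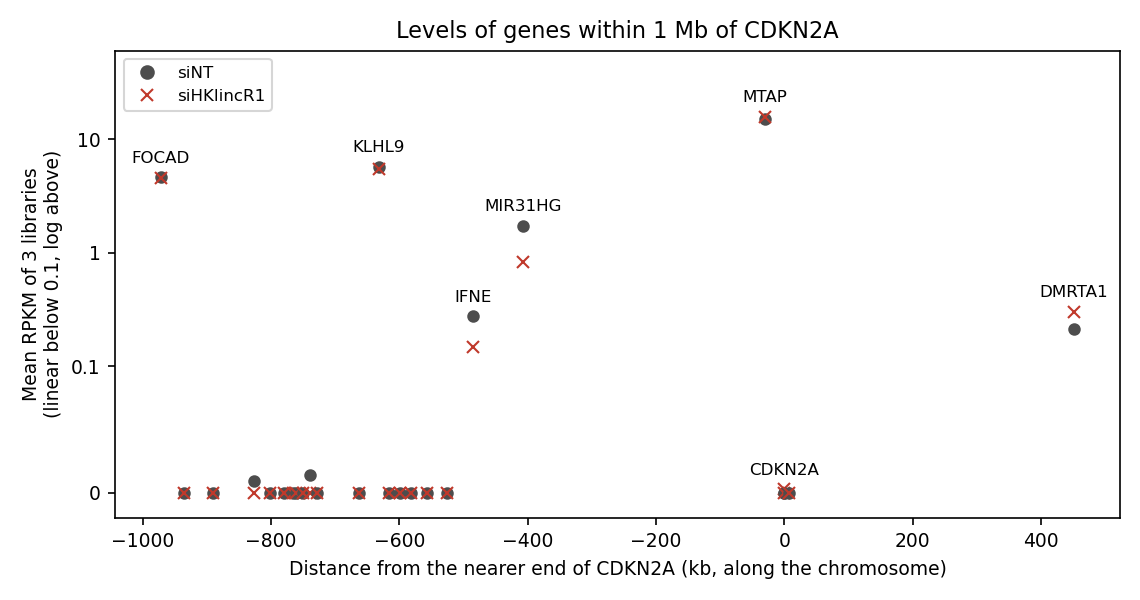
Mean RPKM of 3 libraries per group for the protein-coding genes within 1 Mb of CDKN2A and for CDKN2B-AS1 and MIR31HG, by distance from the nearer end of CDKN2A. Circles are siNT and crosses siHKlincR1, the vertical axis is linear below 0.1 and logarithmic above, and MTAP at 15.1 RPKM stands beside CDKN2A at 0.

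RB1 was at 11.03, 10.3 and 12.5 RPKM with siHKlincR1, against 11.5, 11.6 and 11.04 RPKM with siNT. The third knockdown library was above all controls, and the first and the second were below them, the first only narrowly (11.03 against 11.04 RPKM). The mean was 11.4 ± 0.288 RPKM with siNT and 11.3 ± 1.12 RPKM with siHKlincR1 (SD, n = 3), a log2 fold change of -0.02 (SE 0.09, 95% interval -0.22 to 0.19, adjusted p = 0.934 by limma), whose sign differed between settings. RB1 is encoded on the plus strand (chromosome 13, 48877880 to 49173572), and shares no exon with another annotated gene. It is the member that holds the seed site printed above.

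Of 21 tested genes of the CDKN2A and RB1 axis, 0 were called with or without the block at both thresholds, with 9 positive and 12 negative values (median -0.14). CCND3 (cyclin D3), a partner of CDK4 and CDK6, was at 11.3, 11.5 and 14.8 RPKM with siNT and 7.41, 6.22 and 11.9 RPKM with siHKlincR1 (log2 fold change -0.60, adjusted p = 0.292 by limma). TFDP1, the dimer partner of E2F factors, was at 29.0, 27.1 and 33.2 RPKM with siNT and 20.3, 18.1 and 22.3 RPKM with siHKlincR1. The groups of TFDP1 did not overlap, and its log2 fold change was -0.56 (SE 0.11, adjusted p = 0.101 by limma, with the block 0.0175 and under the fold threshold). TFDP1 holds 1 seed site, whose part was not tested, and CCND3 holds 0. E2F1, named because its adjusted p was also under 0.05 with the block and so chosen after its values were seen, went from 14.5 ± 1.87 to 10.8 ± 2.13 RPKM (SD, n = 3, log2 fold change -0.42, adjusted p = 0.268 by limma, with the block 0.0444).

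SMARCA4 was at 23.8, 22.1 and 25.7 RPKM with siHKlincR1, against 22.8, 23.1 and 23.2 RPKM with siNT. The controls lay within a narrow range, with an SD of 0.208 RPKM, and the knockdown libraries lay on both sides of it. The mean was 23.0 RPKM with siNT and 23.9 ± 1.83 RPKM with siHKlincR1 (n = 3), a log2 fold change of 0.05 (SE 0.07, 95% interval -0.12 to 0.22, adjusted p = 0.738 by limma). SMARCA4 is encoded on the plus strand (chromosome 19, 11071608 to 11190102), with no exon shared with another annotated gene. Of 25 tested subunits of the SWI/SNF complexes, 0 were called with or without the block, with 13 positive and 12 negative values (median 0.02), and all 25 values lay within the fold threshold. BICRAL, a subunit of the non-canonical complex, differed by 0.21 (adjusted p = 0.474 by limma). SMARCC1, a core subunit, was at 23.2, 25.6 and 22.7 RPKM with siNT and 26.6, 28.4 and 26.2 RPKM with siHKlincR1, which did not overlap (log2 fold change 0.18, adjusted p = 0.293 by limma).

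Of 42 further lung cancer driver genes, 34 were tested and 0 were called with or without the block, with 14 positive and 20 negative values (median -0.05). The highest with siNT were B2M, the light chain of class I antigen presentation, at 233.9 RPKM, CDK4 at 37.9 RPKM and CCND1 at 37.5 RPKM. ALK, the kinase activated by fusion in some lung adenocarcinomas, had 0 reads in all libraries. HRAS was at 13.02, 11.5 and 15.6 RPKM with siNT and 9.48, 9.75 and 13.3 RPKM with siHKlincR1, a log2 fold change of -0.31 (adjusted p = 0.373 by limma).

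Over all 11 pathway lists, 221 of 248 distinct genes were tested. Without the block 0 were called by limma on RPKM and 0 by voom, and 39 (17.6%) had an unadjusted p under 0.05, beside 16.2% of all tested genes. With the block 2 were called (0.905%), AREG and EIF4EBP1, beside 1.32% of all tested genes. Groups did not overlap for 49 of the 221 (22.2%), beside 22.0% of all tested genes.

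**Figure D5:**
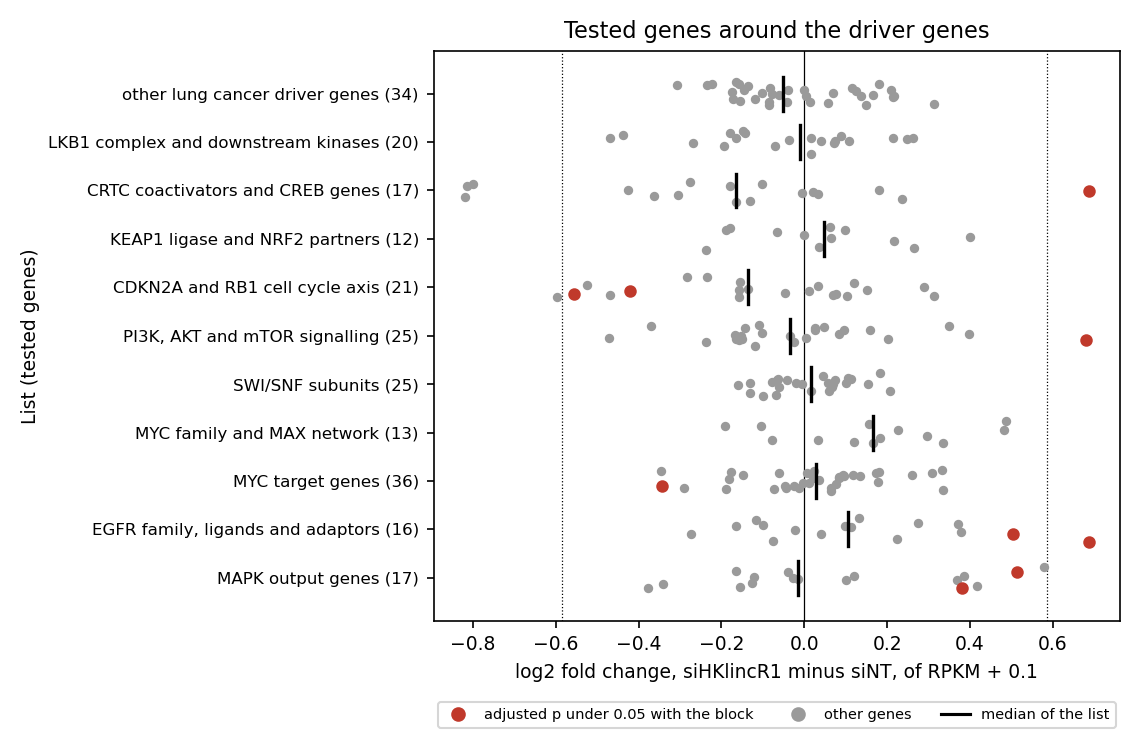
Log2 fold change of each tested gene in the 11 pathway lists, with the number tested in brackets, list medians as bars and the fold threshold of 1.5 as dotted lines. Red points have an adjusted p under 0.05 with the replicate block, and list medians run from -0.17 for the CRTC and CREB genes to 0.17 for the MYC family and MAX network.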

How the data were processed

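PolyA RNA of 6 H460 libraries was sequenced by the authors in strand-specific, paired-end libraries. The authors deposited RPKM values per gene, from reads counted with featureCounts (Rsubread) on Ensembl v74 gene models of GRCh37 (hg19), and tested counts with edgeR. The submitters' processing notes name CASAVA 1.8.2. The aligner, and whether counting used strand, are not given in the sources used here. Reads were worked back from the RPKM values, and 100% of the 31287 genes above 0 came out as whole reads (tolerance 0.0001). Library totals were 24980280 to 30521000 reads, and the floor of 3 reads covers counting error only. Tests used limma 3.58.1 in R 4.3.3 (lmFit, eBayes with trend) on log2(RPKM + 0.1) for genes averaging 0.5 RPKM or more, with Benjamini-Hochberg adjustment over all 15451, after a check on simulated data. The replicate numbers of the labels were taken to pair the libraries, since the deviations of same-numbered libraries from their group means correlated in each pair (0.142, 0.137 and 0.266 across genes). The mismatched pair of siNT replicate 1 and siHKlincR1 replicate 2 reached nearly as much (0.113). The remaining mismatched pairs ran from -0.209 to -0.0098. The pairing was thus read from the same values that the blocked fit tests, and the calls made only with the block rest on it. No source says that same-numbered libraries were prepared together. Gene names, exons and 3′ UTRs came from GENCODE v44 on GRCh37, which held 55538 of the 57773 identifiers. Exons shared between genes are those of GENCODE v44 and may differ in the Ensembl v74 models that were counted. Of the 248 pathway genes LINC00473 was not matched, and of the markers PECAM1. The members and lists were chosen with earlier results of these data known. The genes named were the members, in each list the 2 tested genes with the largest absolute log2 fold change and any called, the coding genes within 1 Mb of CDKN2A, genes that share exons with a member, the 3 genes most correlated with MYC (mean of at least 5 RPKM), and further drivers at 0 or among the 3 highest with siNT. A few results are not reported here. Alternatives changed the pseudocount, the filter on low values, the scaling, the variance model and the call rule, added a replicate block, and dropped each library in turn. Of the coding genes around CDKN2A, those at or under 3 reads are given as counts, and the authors' fold changes and p-values were not used.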

Additional observations from a re-analysis of the deposited data

How the results depend on the processing

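With the replicate number as a block, MYC passed the test (log2 fold change 0.59, limma adjusted p = 0.0493), the genes called among all tested went from 56 to 204 and those in the pathway lists from 0 to 2, and the block changed no other call of a member. Leaving out 1 library gave MYC log2 fold changes of 0.47 to 0.81, called only without siHKlincR1 replicate 3, and gave 7 to 518 genes called over all genes and 0 to 12 in the pathway lists. The 518 and the 12 (4 higher, 8 lower) were without siHKlincR1 replicate 3, and leaving out any other library gave 7 to 18 and 0. Without 1 library SMARCA4 ran from -0.0039 to 0.11, negative without siHKlincR1 replicate 3, and RB1 from -0.093 to 0.046, positive without siHKlincR1 replicate 2. Neither passed the test under any of 18 alternatives. Leaving out a same-numbered pair under the block, chosen after seeing the data, gave MYC 0.51, 0.53 and 0.73 without pair 1, 2 and 3, called only in the last (limma adjusted p = 0.0398), RB1 0.0068 without pair 1 and 0.057 without pair 2, 131, 38 and 305 genes called over all genes and 1, 0 and 7 in the lists. An adjusted p under 0.05 alone with the block, also chosen after seeing the data, gave 452 genes and 8 list genes (5 higher, 3 lower). A fit without the trend called 17 genes over all genes and voom 89, and both called 0 of the members and 0 of the list genes. KEAP1 (-0.18 to -0.046), STK11 (-0.18 to -0.076), EGFR (0.065 to 0.37) and PIK3CA (0.0036 to 0.064) kept their sign and stayed uncalled in all 18. The HKlincR1 reduction lay between 83.6% and 86.9% when 1 library was left out, and averaged 85.4% within the paired libraries of the block. The causes of these shifts were not tested. CDKN2A was under the floor of 3 reads in every library, so that no alternative gave it a value.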

Other observations

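MIR31HG, a long non-coding RNA of the CDKN2A neighbourhood (chromosome 9, 21380072 to 21559890) and host of a microRNA, was chosen after its values were seen. It was at 1.93, 1.54 and 1.72 RPKM with siNT and 0.613, 0.603 and 1.26 RPKM with siHKlincR1, from 13 to 40 reads per library. The groups did not overlap, and the log2 fold change of -1.05 (SE 0.27) did not pass the test (adjusted p = 0.181 by limma, and 0.0796 with the replicate block). The third knockdown library was again the one nearest to the controls.

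PHLDA1, a gene induced by MAPK signalling, was likewise chosen after its values were seen, as the remaining list gene with an adjusted p under 0.05 in the fit with the block. It averaged 51.1 ± 7.25 RPKM with siNT and 67.1 ± 13.1 RPKM with siHKlincR1 (SD, n = 3), a log2 fold change of 0.38 under the fold threshold (limma adjusted p = 0.318, and 0.0463 with the block).

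NFE2L2, which encodes NRF2, the substrate of KEAP1, was also singled out after its values were seen. It was at 22.9, 23.3 and 18.5 RPKM with siNT and 26.0, 25.4 and 23.5 RPKM with siHKlincR1, so that the highest control, at 23.3 RPKM, was just under the lowest knockdown library, at 23.5 RPKM (log2 fold change 0.22, limma adjusted p = 0.341).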
